A study of Mus musculus with 2 samples.

Results

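The contractile cytoskeleton and YAP target genes described here were a list of 9 genes given by name, Acta2, Actg2, Tagln, Cnn1, Myl9, Myh11, Tpm1, Tpm2 and Ankrd1. All 9 were listed in both single-cell libraries of the series, among 27995 genes that the libraries shared. Each library held the cultured stromal vascular fraction, the non-adipocyte cells of fat tissue, from pooled wild-type C57BL/6N mice aged 8 to 12 weeks. One library came from inguinal white adipose tissue (iWAT) and the other from interscapular brown adipose tissue (iBAT). In both, cells grown to 80% confluency stayed untreated or had 48 h of FGF1, FGF2 or FGF8, each at 5.5 nM, and the 4 tagged treatments were loaded together, 10000 cells per tag. The series description names FGF2 and untreated cells alone, and the study's methods do not name FGF8 for this experiment. The matrices used here do not tell the treatments apart, so each depot was 1 sample and no treatment was compared.

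These genes build and regulate the stress fibres of smooth muscle cells, myofibroblasts and cultured fibroblasts, in which actin filaments are pulled by non-muscle and smooth muscle myosin. Most of them are textbook targets of serum response factor, which is switched on by its MRTF cofactors when actin polymerises and binds a site called the CArG box. YAP and TAZ, held in check by the Hippo kinases, act on a partly shared set of genes through TEAD proteins, and Ankrd1, together with Ccn1 and Ccn2, is a standard readout of that pathway. In preadipocytes on stiff plastic both programmes are active as a rule, and both recede as cells round up into adipocytes.

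Sequencing gave 29962 barcodes for iWAT and 28636 for iBAT, of which 29744 and 28215 had more than 200 and fewer than 7500 genes and under 30% mitochondrial counts. Kept cells had a median of 16204 UMIs (unique molecular identifiers, 1 per captured transcript) in iWAT and 27235 in iBAT. The matrices summed to 503611913 and 815235820 UMIs, and the libraries shared 8 barcode numbers. The depots also differed in sex-linked transcripts, with Xist at 345 CPM (UMIs of a gene per 1000000 UMIs of the cells summed) in iWAT against 0.0505 in iBAT and Ddx3y, a Y-linked gene, at 1.20 against 81.9, so depot and sex of the mice cannot be told apart. With 1 library per depot no difference had a replicate check, and every interval given is a 95% counting interval only.

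Promoter windows of 250 bases before the transcription start were in the RefSeq table (GRCm38.p6) for 6 of the 9 genes, Acta2, Cnn1, Myl9, Tpm1, Tpm2 and Ankrd1. The 4 shown are those with a match to the TEAD core motif GGAATG or to the CArG box, shown because contractile genes are read as serum response factor targets and Ankrd1 as a TEAD target. Capitals mark exact matches only, and both strands were searched.
Acta2 (chr19:34255374-34255623, minus strand): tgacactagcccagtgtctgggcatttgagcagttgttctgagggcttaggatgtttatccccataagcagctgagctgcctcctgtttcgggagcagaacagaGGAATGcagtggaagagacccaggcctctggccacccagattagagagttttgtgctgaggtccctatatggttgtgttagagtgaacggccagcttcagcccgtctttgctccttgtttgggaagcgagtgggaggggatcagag
Myl9 (chr2:156775214-156775463, plus strand): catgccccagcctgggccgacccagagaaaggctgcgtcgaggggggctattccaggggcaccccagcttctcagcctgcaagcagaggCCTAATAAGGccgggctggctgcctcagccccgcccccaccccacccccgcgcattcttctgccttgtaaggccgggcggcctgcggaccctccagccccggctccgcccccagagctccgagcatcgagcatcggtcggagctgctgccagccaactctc
Tpm1 (chr9:67049214-67049463, minus strand): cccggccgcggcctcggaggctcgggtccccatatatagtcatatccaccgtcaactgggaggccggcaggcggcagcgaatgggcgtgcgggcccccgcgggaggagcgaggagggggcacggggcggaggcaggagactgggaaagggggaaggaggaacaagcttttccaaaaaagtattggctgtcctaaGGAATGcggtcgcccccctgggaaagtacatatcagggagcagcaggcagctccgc
Ankrd1 (chr19:36119845-36120094, minus strand): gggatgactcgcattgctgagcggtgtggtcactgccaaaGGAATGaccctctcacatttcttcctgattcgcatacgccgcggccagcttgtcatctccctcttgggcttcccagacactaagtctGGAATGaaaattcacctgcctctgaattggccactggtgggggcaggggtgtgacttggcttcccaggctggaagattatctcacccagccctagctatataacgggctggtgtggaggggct

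Ankrd1 held GGAATG at 2 places, starting 210 and 123 bases before its start, Acta2 once at 146 and Tpm1 once at 56. Myl9 held the only exact CArG box, starting 161 bases before its start. Near matches were not searched or marked. The Acta2 window holds ccctatatgg and ccttgtttgg, each a single base off the strict box, so lower case does not mean that such a site is absent. Of 32851 mouse promoter windows of the same length, 12.6% held GGAATG on either strand and 1.47% held the CArG box. These are matches of letters only, and sites outside the windows were not searched.

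In cells positive for Pdgfra, a receptor that marks stromal preadipocytes, 7 of the 9 genes were higher in iWAT and 2, Actg2 and Tpm2, were higher in iBAT. No member differed 2-fold between the depots, including the 7 at 50 CPM or more in 1 library. Of the 3790 genes at that level 7.47% did, so the count does not set so few members apart. On the log2 scale (iBAT over iWAT) the members had a median of -0.38, and all genes tested one of 0.06. Cells with at least 1 Pdgfra UMI numbered 17460 in iWAT and 25927 in iBAT. These cells were not alike in other markers. A list of 8 luminal epithelial markers summed to 139 CPM in iWAT and 1.01 in iBAT. A list of 10 adipocyte markers went the other way, at 304 and 576. The part of these in the depot ratios was not tested.

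**Figure D1:**
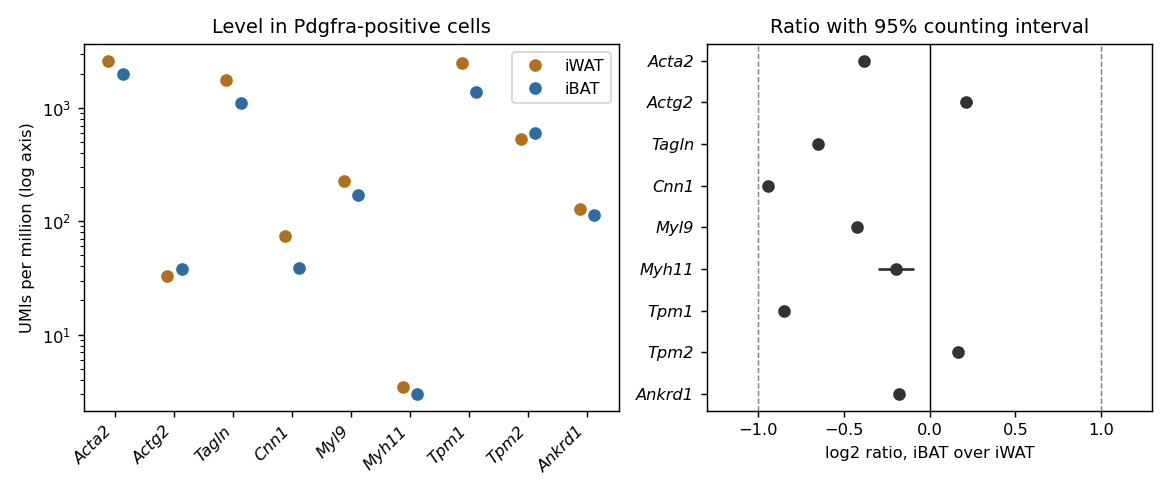
Left, summed CPM (log axis) of each gene in the Pdgfra-positive cells of each library. Right, the log2 ratio of iBAT over iWAT with its 95% counting interval, with dashed lines at a 2-fold difference. No gene passes a dashed line, and Cnn1 (-0.94) and Tpm1 (-0.85) lie nearest to it.

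For the comparison among cell types, a class was defined by 3 or more UMIs of its marker and no Pdgfra UMI, with Rgs5 for mural cells, Krt5 for basal epithelium and Adipoq for adipocytes. The Pdgfra class had 1 or more Pdgfra UMIs and none of those markers, 16958 cells in iWAT and 24604 in iBAT. A marker was counted as raised in a class at 10 CPM and 3 times its level in the remaining kept cells. Each gate gene is in its own list, Krt5 in the basal, Adipoq in the adipocyte and Rgs5 in the mural one. The count of a class in its own list thus holds 1 marker that was raised through the gate. The Krt5 class of iWAT (163 cells) had 7 of 8 basal epithelial markers raised, beside 4 of 8 luminal, 1 of 10 mural (Mcam) and 1 of 8 Schwann cell markers (Sox10). The Adipoq class of iBAT (21 cells) had all 10 adipocyte markers raised, beside 2 of 10 mural (Mcam and Abcc9) and 1 of 8 luminal ones (Lcn2). The Rgs5 class of iBAT (51 cells) had 8 of 10 mural markers raised and all 8 luminal epithelial markers at 0, but also 3 of 10 skeletal myogenic markers (Myod1, Myog and Des), whose list summed to 359.5 CPM against 42.2 in the Pdgfra class. Of 8 endothelial markers 1, Flt1, was raised, and that list summed to 318 against 36.2 CPM, and of 10 adipocyte markers 1, Fabp4, was. The part of these lists in its values was not tested.

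The Rgs5 class of iWAT went against its label. Of its 203 cells, 144 (70.9%) carried Epcam, the epithelial adhesion gene, and 4 of 8 luminal epithelial markers were raised beside 5 of 10 mural markers. The 59 cells with no Epcam UMI had 7 of 10 mural, 3 of 10 adipocyte, 2 of 8 endothelial (Emcn and Flt1), 1 of 10 skeletal myogenic (Des) and 0 of 8 luminal markers raised. Their endothelial list summed to 451 CPM against 25.7 in the Pdgfra class, and its part in the values was not tested. The values of this class are therefore given with and without the Epcam cells, a split made after the data were seen. Epcam is itself in the luminal and basal epithelial lists, so the split fixed that marker in both parts. iWAT had 1 cell in the Adipoq class and iBAT none in the Krt5 class, so neither gave a ratio. Adipoq cells of iBAT with 3 or more UMIs numbered 83, of which 62 also carried Pdgfra.

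Some UMIs of these genes were also read in leukocytes. Cells with 3 or more UMIs of Ptprc, the pan-leukocyte gene, and no Pdgfra UMI served as a background class, 82 in iWAT and 92 in iBAT. At a fixed depth of 10000 UMIs per cell, 68.5% of these cells (37 of 54) in iWAT and 60.9% (56 of 92) in iBAT held an Acta2 UMI, with a median of 1. Whether these came from free RNA, from doublets or from the leukocytes' own expression was not tested. Levels of a member at or below those of the Ptprc class are read here as background, by convention only.

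**Figure D2:**
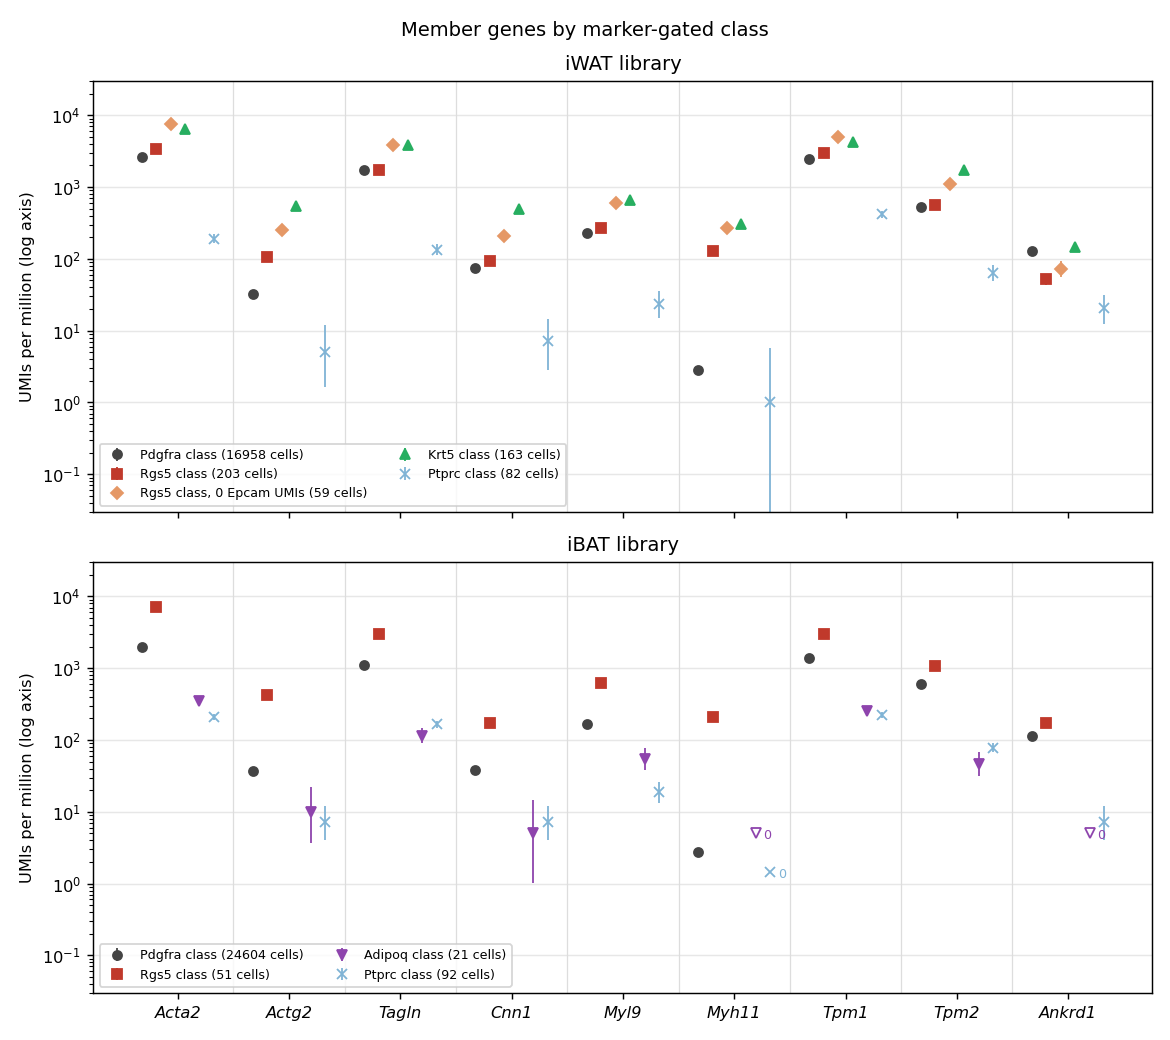
Summed CPM (log axis) of each member in each class of the iWAT library (top) and the iBAT library (bottom), with 95% Poisson intervals. Markers tagged 0 had no UMI and are drawn at the level that 3 UMIs would give. The Rgs5 class without Epcam and the Krt5 class lie above the Pdgfra class for every contractile gene, while the Adipoq and Ptprc classes lie below it, except that Myh11 in the Adipoq class had 0 UMIs and its symbol, at 5.01 CPM, lies above.

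In iBAT, 7 of 9 members were at least 2-fold higher in the Rgs5 class than in the Pdgfra class, where 5.35% of the 3831 genes compared were. Tpm2 (log2 ratio 0.83) and Ankrd1 (0.58) were the other two. In iWAT the whole Rgs5 class had 2 members past 2-fold higher (9.72% of all genes) and 1, Ankrd1, past 2-fold lower (7.57%). Without the Epcam cells 7 of 9 were higher (4.9% of all genes), and in the 144 Epcam cells alone 6 of the 7 members at 50 CPM or more were lower (14.4%). In the Krt5 class of iWAT 7 of 9 were higher, all but Tpm1 and Ankrd1, against 9.57% of all genes. In the Adipoq class of iBAT, which held no Myh11 or Ankrd1 UMI, all 7 members with a ratio were at least 2-fold lower. Of these, 5 were at the 50 CPM that the share over all genes, 20.9%, is based on, and Actg2 and Cnn1 were under it. In the 83 Adipoq cells that could also carry Pdgfra, 5 of the 6 members at that level were lower, all but Myl9 (-0.96), against 7.83% of all genes. All genes tested had a median of -0.26 on the log2 scale in the Adipoq class and between -0.09 and -0.03 in the Rgs5 and Krt5 classes. With gates of 1 UMI that allowed Pdgfra, 1 member was past 2-fold higher in iBAT Rgs5 cells and 0 lower in iBAT Adipoq cells, and 90.3% and 89.8% of those cells carried Pdgfra. A level summed over a class cannot tell fewer expressing cells from less RNA per cell, so shares and medians at fixed depth are added here. In iBAT 100% of Rgs5 cells, 76.2% of Adipoq cells and 96.4% of Pdgfra-class cells held Acta2, with medians of 56, 1 and 14 UMIs. In iWAT 78.5% of the 107 Krt5 cells at that depth held Myh11, against 1.98% of Pdgfra-class cells, with medians of 3 and 0.

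Acta2 encodes smooth muscle alpha-actin, the defining actin of myofibroblasts. It lies at chr19:34217737-34232990 on the minus strand of GRCm39 and overlaps Stambpl1 on the opposite strand by 301 bases at its end. In Pdgfra-positive cells it stood at 2619.6 CPM in iWAT and 2009 in iBAT, a log2 ratio of -0.38 (interval -0.39 to -0.38). Acta2 was higher in the iBAT Rgs5 and iWAT Krt5 classes than in stroma, while the iWAT Rgs5 class was split. In iWAT it was at 2615 in the Pdgfra class, 3433 in the Rgs5 class, 7642 in that class without Epcam, 867 in its Epcam cells and 6486 in the Krt5 class, and the Ptprc class had 192. In iBAT the Pdgfra class had 1999, the Rgs5 class 7176 and the Adipoq class 348, against 208 in Ptprc cells. The log2 ratio of the Adipoq class over stroma was -2.52 (-2.73 to -2.33).

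Single cells differed widely in Acta2. Thinned to 10000 UMIs, which left 15671 Pdgfra-positive cells in iWAT (1789 were shallower) and 25927 in iBAT (0 were), a cell held a median of 22 Acta2 UMIs in iWAT and 14 in iBAT. The bottom decile of cells had at most 4 and 2, and the top decile at least 51 and 46. Nearly every cell held some, 98.6% in iWAT and 96.3% in iBAT. The Fano factor, the variance over the mean, which is 1 for counting noise alone, was 14.5 in iWAT and 19.8 in iBAT, ranks 31 of 8531 and 28 of 8646 genes. It rises with the mean at equal relative spread, so these ranks partly follow the high level of Acta2.

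Actg2, the gamma actin of visceral smooth muscle (chr6:83489887-83513551, minus strand), was far more restricted. Its level in Pdgfra-positive cells was 32.8 CPM in iWAT and 38.1 in iBAT, a log2 ratio of 0.21 (0.18 to 0.25). In the Krt5 class of iWAT it reached 537, a log2 ratio of 4.06 over stroma, and in the Rgs5 class of iBAT 427, a log2 ratio of 3.51. The iWAT Rgs5 class had 108, and 253 without Epcam cells. Among Pdgfra-positive cells at fixed depth 15.7% in iWAT and 17.7% in iBAT held a UMI, above the 3.70% (interval 0.45% to 12.7%) and 3.26% (0.68% to 9.23%) of Ptprc cells. The top decile of cells held 82.4% of all Actg2 UMIs in iWAT and 79.5% in iBAT, a share that counting alone raises in sparse genes.

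Tagln encodes transgelin (SM22), an actin-bundling protein that appears early in the smooth muscle programme. It lies at chr9:45840909-45847404 (minus strand) and is overlapped by Pcsk7 for 123 bases and by the lncRNA Gm48529 on the other strand. Pdgfra-positive cells held 1757 CPM in iWAT and 1117.5 in iBAT, a log2 ratio of -0.65 (-0.66 to -0.65). Its level in the Rgs5 class of iBAT was 3012 against 1115 in the Pdgfra class, and in iWAT the Krt5 class had 3900.4 against 1751. The Rgs5 class of iWAT had 1749, a log2 ratio of -0.0016, and 3852 without Epcam cells, a ratio of 1.14. The Adipoq class of iBAT had 115 CPM, under the 165 of Ptprc cells and thus read as background. At fixed depth the median cell held 15 Tagln UMIs in iWAT and 8 in iBAT.

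Cnn1 encodes calponin, which inhibits the myosin ATPase and marks late smooth muscle differentiation (chr9:22010512-22020926, plus strand). It overlaps Elof1 on the opposite strand by 961 bases. Cnn1 showed the widest gap of the 9 between depots, 74.5 CPM in iWAT and 38.8 in iBAT, a log2 ratio of -0.94 (-0.97 to -0.92), and 4.35% of genes tested had a lower ratio. Taken over all kept cells the ratio was -1.13, past 2-fold. The Krt5 class, found in iWAT alone, had 503 against 73.9 in stroma. The Rgs5 class had 92.9 in iWAT, 212 without Epcam cells, and 170.5 in iBAT. Of Pdgfra-positive cells at fixed depth, 36.8% in iWAT and 20.3% in iBAT held a Cnn1 UMI, against 9.26% (3.08% to 20.3%) and 1.09% (0.03% to 5.91%) of Ptprc cells.

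Of the myosin subunits, Myl9, the regulatory light chain that is phosphorylated to start contraction (chr2:156617084-156623579, plus strand, inside the opposite-strand lncRNA 5730471H19Rik), had 229 CPM in iWAT and 171 in iBAT, a log2 ratio of -0.42 (-0.44 to -0.41). The Rgs5 class of iWAT had 267 against 228 in stroma, a ratio of 0.23, with 598 in its cells without Epcam (1.39) and 65.9 in those with it (-1.79). The iBAT Rgs5 class had 619 and the iWAT Krt5 class 659, and the Adipoq class of iBAT had 55.2, above the 18.8 of Ptprc cells. At fixed depth 75.8% of Pdgfra-positive cells in iWAT and 59.7% in iBAT held a Myl9 UMI, against 7 of 54 and 12 of 92 Ptprc cells (intervals 5.37% to 24.9% and 6.93% to 21.7%).

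Myh11, the smooth muscle myosin heavy chain (chr16:14012399-14109236, minus strand), is the most specific of the group for mature smooth muscle and myoepithelium. In Pdgfra-positive cells it was low, 3.42 CPM in iWAT and 2.98 in iBAT, a log2 ratio of -0.20 (-0.30 to -0.09). It had the widest log2 ratio of the 9 in the Krt5 class and in the Rgs5 class of either depot. The Krt5 class of iWAT had 305 against 2.86 in the Pdgfra class, a log2 ratio of 6.74 (6.59 to 6.89). The Rgs5 class had 129 in iWAT and 209.6 in iBAT, log2 ratios of 5.50 (5.30 to 5.69) and 6.24 (6.03 to 6.44). Without Epcam cells the iWAT value was 273, a ratio of 6.58 (6.37 to 6.79). Unlike the other members it was also higher in the Epcam part of the iWAT Rgs5 class, at 41.1 CPM. At fixed depth 346 of 15671 Pdgfra-positive cells in iWAT (2.21%) and 555 of 25927 in iBAT (2.14%) held a UMI. Ptprc cells held 0 of 54 and 0 of 92, with exact upper limits of 6.60% and 3.93%, so these shares could not be told from background at this depth.

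The tropomyosins, which lie along the actin filament and gate myosin, differed in direction between the depots. Tpm1 (chr9:66929870-66956953, minus strand) had 2509 CPM in iWAT and 1394 in iBAT, a log2 ratio of -0.85 (-0.85 to -0.84). Tpm2 (chr4:43514697-43524949, minus strand) had 535 and 599.97, a log2 ratio of 0.16 (0.16 to 0.17). In the Krt5 class of iWAT the log2 ratio over stroma was 1.71 for Tpm2, at 1749 CPM, and 0.78 for Tpm1, at 4287 CPM. The Rgs5 class of iBAT had 2956 for Tpm1 and 1068 for Tpm2, log2 ratios of 1.08 and 0.83. The Rgs5 class of iWAT had ratios of 0.24 for Tpm1 and 0.07 for Tpm2, and of 1.00 and 1.04 without Epcam cells. The Ptprc class of iWAT held 415.5 CPM of Tpm1. Of Pdgfra-positive cells 99.9% and 99.8% held a Tpm1 UMI, but so did 83.3% and 81.5% of Ptprc cells. The top decile of Pdgfra-positive cells held 22.8% and 23.3% of its UMIs, the lowest shares of the 9.

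Ankrd1 encodes a nuclear ankyrin-repeat protein induced by stretch and by YAP (chr19:36089352-36097506, minus strand, overlapped by the opposite-strand lncRNA Gm56671). Pdgfra-positive cells held 129.5 CPM in iWAT and 114 in iBAT, a log2 ratio of -0.18 (-0.20 to -0.16). Its class pattern was not that of the contractile genes. The Krt5 class of iWAT had 147 against 129 in stroma, a log2 ratio of 0.19 (0.02 to 0.35). In the Rgs5 class it was lower than stroma in iWAT, 52.0 CPM and a log2 ratio of -1.31 (-1.58 to -1.05), and higher in iBAT, 171 and 0.58 (0.36 to 0.78). Without Epcam cells the iWAT value was 73.2 and still lower, at -0.81 (-1.19 to -0.46). With gates of 1 UMI that allowed Pdgfra both signs turned, to 0.054 (-0.01 to 0.12) in iWAT and -0.066 (-0.11 to -0.02) in iBAT. The Adipoq class of iBAT held 0 Ankrd1 UMIs, which allows up to 5.01 CPM, at least 22.9-fold lower than stroma, and Ptprc cells held 7.23.

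Further classes, chosen after the data were seen, set Ankrd1 and the tropomyosins apart again. In iBAT cells with 3 or more UMIs of Cdh15, a muscle satellite cell cadherin (58 cells), Ankrd1 reached 569 CPM, a log2 ratio over stroma of 2.31 (2.20 to 2.41), and Tpm2 2459, a ratio of 2.04. Tagln was at 97.0 there, under the level of Ptprc cells and read as background. In 121 endothelial Pecam1 cells of iBAT Ankrd1 was at 344, a ratio of 1.58, and Tpm2 at 76.3, under the 78.5 of Ptprc cells and read as background. In the 3371 Epcam cells of iWAT without Krt5, Ankrd1 was at 187 and Tpm1 at 3677, log2 ratios of 0.54 and 0.56, while Acta2 was at 968 and its ratio was -1.43. Of all genes, 15.1%, 13.4% and 9.61% were at least 2-fold higher than stroma in these classes.

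Every member varied over the Pdgfra-positive cells by more than counting noise alone. All 8 members at a mean of 0.1 UMI per thinned cell or more had a Fano factor of at least 2 in both libraries, where 5.77% of genes in iWAT and 6.35% in iBAT did. At 5000 UMIs 5 of them did in iWAT. Values ran from 2.28 (Myl9) to 14.5 (Acta2) in iWAT and from 2.78 (Cnn1) to 19.8 (Acta2) in iBAT. Myh11, under that mean, had 2.51 and 2.22. The Fano factor rises with the mean at equal relative spread, and no share among genes of like level was taken. Tpm1, at 8.73 in iWAT, had the lowest standard deviation over mean of the 9 there, 0.60. Of Ankrd1, 66.2% of UMIs in iWAT and 67.8% in iBAT lay in the top decile of cells, whereas 35.2% and 32.8% of cells held any. Counting alone raises the top-decile share of sparse genes, so it does not rank genes of unlike level by spread. Ptprc cells with an Ankrd1 UMI were 5.56% (1.16% to 15.4%) and 5.43% (1.79% to 12.2%). The treatments pooled in each library were among the differences between these cells and their part was not tested.

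**Figure D3:**
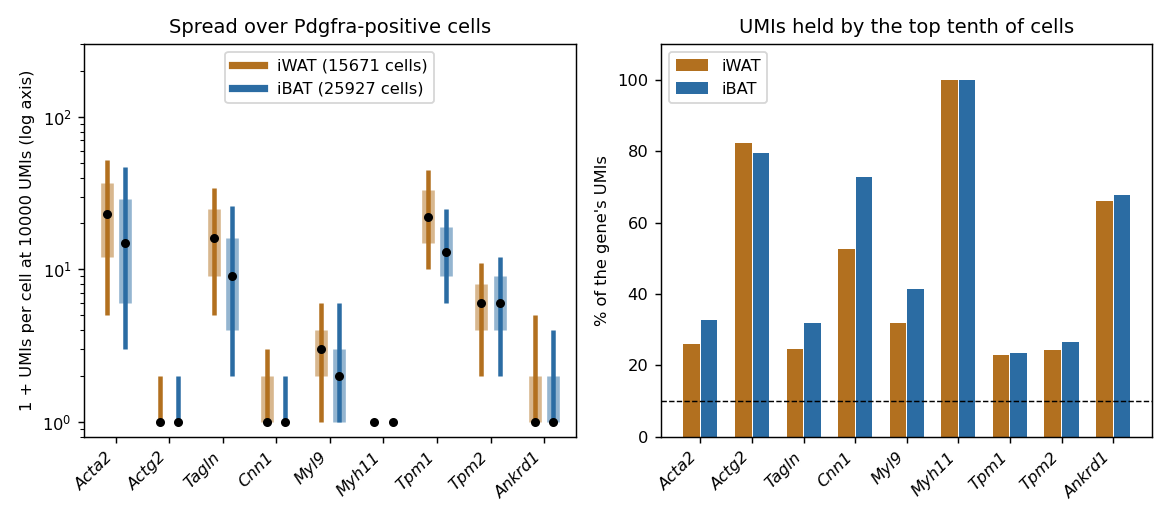
Left, 1 plus UMIs per Pdgfra-positive cell thinned to 10000 UMIs (log axis), with the median (dot), the middle 50% of cells (wide bar) and the 10th to 90th percentile (thin bar). Right, the percentage of each gene's UMIs held by the top decile of cells, with a dashed line at 10%. Genes with few UMIs per cell lie above that line from counting alone. Myh11 is at 100% because only 2.21% of cells in iWAT and 2.14% in iBAT held it. Tpm1 sits near 23% and Ankrd1 near 67% in both libraries.

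Many pairs of contractile genes, but no pair with Ankrd1, were correlated at 0.3 or more from cell to cell. Among the 28 pairs of contractile genes, Pearson's r of log(1 + UMIs) over cells reached 0.3 in 15 pairs in iWAT and 18 in iBAT, where 0.015% and 0.0195% of all gene pairs did. With genes at a mean of 0.5 UMI or more, 10 pairs did in iBAT. These were all the pairs among the contractile genes left there, Acta2, Tagln, Myl9, Tpm1 and Tpm2. The tightest pair was Acta2 with Tagln, r = 0.75 in iWAT and 0.77 in iBAT, followed in iBAT by Acta2 with Myl9 at 0.65. None of the 8 pairs with Ankrd1 reached it, the highest being Tpm1 at 0.16 and 0.18 and the lowest Myh11 at 0.01 and 0.03. These are descriptions over 15671 and 25927 cells that share a library, a depth and the pooled treatments. Sparse genes lower r, so the pairs of Myh11 (at most 0.16 in iWAT and 0.21 in iBAT) and Actg2 are not set against those of Acta2.

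**Figure D4:**
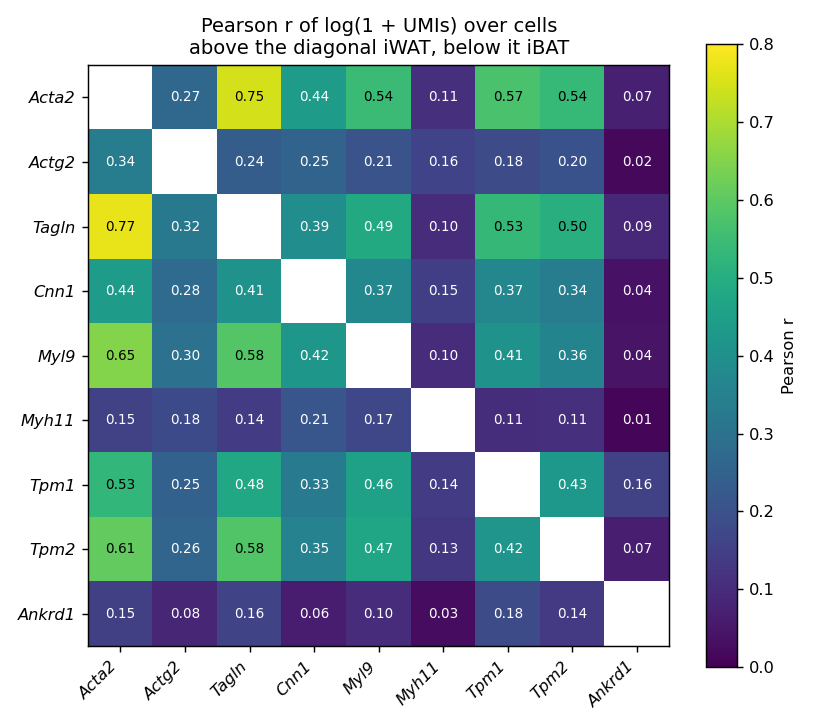
Pearson r between members over Pdgfra-positive cells thinned to 10000 UMIs, iWAT above the diagonal and iBAT below it. The block of Acta2, Tagln, Cnn1, Myl9, Tpm1 and Tpm2 holds values from 0.33 to 0.77, and the Ankrd1 row and column reach at most 0.18.

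For the sparse genes, co-detection gives the same kind of measure. Cells with both Actg2 and Cnn1 made up 8.97% in iWAT and 6.66% in iBAT, 1.55 and 1.86 times the product of the single shares. Ankrd1 with Cnn1 was 1.06 and 1.08 times. Cells with no Acta2 UMI, 218 in iWAT and 965 in iBAT, held Tagln in 76.1% and 59.0% of cases and Cnn1 in 4.59% and 1.24%, but Ankrd1 in 33.5% and 22.0%, against 35.2% and 33.2% in cells with Acta2.

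The 8156 genes ranked in both libraries were ordered by how like the sum of the 8 contractile genes their UMIs were over cells. The 9 highest by the smaller r were Dstn (0.55 in iWAT and 0.56 in iBAT), an actin-severing protein, Cnn2 (0.52 and 0.59), Csrp1 (0.53 and 0.51), Actg1, Tmsb4x, Actn1, Myl6, Myl12a and Actb. Of all other genes, 0.282% in iWAT and 0.394% in iBAT reached r = 0.3. The most opposed were Spp1, osteopontin (-0.34 and -0.37), Il1rl1, Mt2, Gda and Pabpc1. For Ankrd1 the 5 most alike were Ccn2 (0.225 and 0.298), the YAP target connective tissue growth factor, Zyx (0.21 and 0.22), Actb, Inhba and Tm4sf1, and no gene reached 0.3 (0%). Ccn2 had a higher r with the contractile sum, 0.42 in iWAT and 0.38 in iBAT. The 20 YAP targets ranked had a median r of 0.036 and 0.038 with Ankrd1, and of 0.041 and 0.049 with that sum. Ankrd1 is sparser than the sum, which lowers r. The genes most opposed to Ankrd1 were Mmp2 (-0.15 and -0.19), Fstl1, Sfrp1, Col3a1 and Lgals3bp.

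Pdgfra-positive cells were then ranked by the summed contractile UMIs, which ran from a 10th percentile of 26 to a 90th of 135 in iWAT and from 14 to 105 in iBAT. The ranking is a range and not a cell type. The top decile (1595 and 2634 cells) was compared with the lowest (1586 and 2646), with 1132 and 1560 cells within 10% of the upper limit and 569 and 1159 of the lower. The highest cells were deeper before thinning, a median of 21157 against 16519.5 UMIs in iWAT and 29692 against 26378 in iBAT. Counted before thinning, Rgs5 was found in 4.08% against 1.95% of these cells in iWAT and in 5.35% against 3.63% in iBAT, so these shares are not at equal depth. Epcam was found in 9.91% against 9.65% of them in iWAT and in 0.380% against 0.378% in iBAT. The part of these in the values below was not tested. The median of all genes shifted by -0.11 in iWAT and -0.11 in iBAT, and 2.15% and 2.47% of all genes were at least 2-fold higher in the top decile, and 3.22% and 3.03% lower.

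Ankrd1, which the ranking did not use, was higher at the contractile end in both depots. It stood at 172 against 73.3 CPM in iWAT, a log2 ratio of 1.23, and at 226 against 45.0 in iBAT, a ratio of 2.33. With cells ranked by Acta2 alone the ratios were 0.64 (0.55 to 0.74) in iWAT, under 2-fold, and 1.84 (1.77 to 1.91) in iBAT. Its mean per cell went from the lowest to the top decile from 0.74 to 1.71 UMIs in iWAT and from 0.44 to 2.25 in iBAT. Of 22 other YAP targets, 4 were at least 2-fold higher and 1 lower in iWAT, and 6 higher and 1 lower in iBAT. At 50 CPM or more, the level behind the shares of all genes, these were 4 and 1 of 12 in iWAT and 6 and 0 of 11 in iBAT. Higher in both were Tgfb2, a TGF-beta ligand (log2 ratio 2.37 and 2.96), Ccn2 (1.74 and 2.21), F3, tissue factor (1.46 and 1.92) and Crim1 (1.40 and 1.65). Igfbp3 was the lower one in iWAT, at -1.52. Ccn1 was 1.34 higher on the log2 scale in iBAT and 0.44 in iWAT. The median of the list was 0.09 in iWAT and 0.31 in iBAT.

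**Figure D5:**
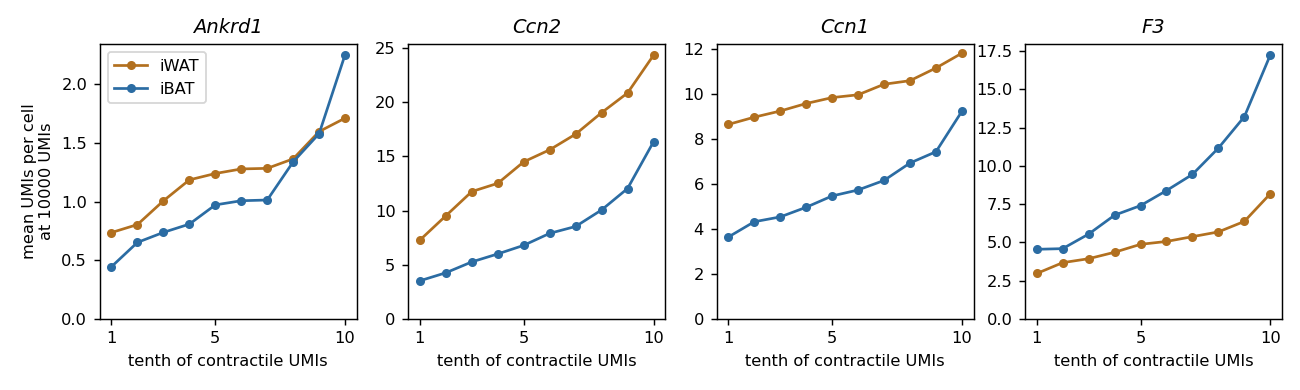
Mean UMIs per Pdgfra-positive cell at 10000 UMIs for Ankrd1, Ccn2, Ccn1 and F3 over deciles of cells ranked by summed contractile UMIs, 1 the lowest. Ankrd1 goes from 0.74 to 1.71 in iWAT and from 0.44 to 2.25 in iBAT, and Ccn2 from 7.27 to 24.3 and from 3.51 to 16.3.

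Many cytoskeletal partners outside the 8 ranked genes were also higher in the top decile. In iWAT 16 of the 28 with a ratio were at least 2-fold higher and in iBAT 16 of 29, with 0 lower and medians of 1.01 and 1.09. At 50 CPM or more 12 of 24 were higher in each, against 2.15% of all genes in iWAT and 2.47% in iBAT. The widest among those at 50 CPM or more were Acta1, skeletal actin (4.59 and 5.01), Mylk, myosin light chain kinase (3.00 and 3.70), Csrp1 (2.51 and 2.80) and Cnn2 (1.63 and 2.09). Acta1 and Actc1 are near copies of the coding part of Acta2. How reads fitting several genes were assigned is not given in the sources used here, so values of all actin genes are uncertain. Srf, serum response factor itself, was 51.1 against 24.0 CPM in iWAT and 46.2 against 21.1 in iBAT, ratios of 1.09 and 1.13. Of its cofactors, Mrtfa and Mrtfb stayed within 2-fold, while Myocd, with 24 against 11 UMIs in iWAT and 61 against 15 in iBAT, had ratios of 1.12 (0.03 to 2.29) and 2.03 (1.20 to 2.95). Over all 5 pathway lists 26 genes were higher and 2 lower in iWAT, and ranking by Acta2 alone gave 17 and 4. Of the 60 at 50 CPM or more, ranking by the sum gave 20 higher and 1 lower in iWAT, against 2.15% and 3.22% of all genes.

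Of 16 genes of the Hippo and TEAD machinery, 1 (Tead4, at 1.88 against 0.76 CPM in iWAT) was past 2-fold along the same ranking in iWAT and 0 in iBAT. At 50 CPM or more 0 of 9 were in each, where 2.15% and 2.47% of all genes were higher and 3.22% and 3.03% lower, so the count does not set this list apart. Tead1 had ratios of 0.58 and 0.72, Yap1 of 0.43 and 0.32 and Wwtr1, which encodes TAZ, of -0.28 and -0.51. Of 16 TGF-beta and myofibroblast genes, 3 were higher and 1 lower in iWAT, and 5 higher and 1 lower in iBAT, with Tgfb3 at 1.89 and 2.25. At 50 CPM or more 3 of 14 were higher in iWAT and 5 of 14 in iBAT, with 0 lower, beside the same shares of all genes.

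Markers of other states moved along the ranking as well. In iWAT 4 of the 7 mesenchymal markers at 50 CPM or more were at least 2-fold lower in the top decile, among them Ly6a (-2.66), Dcn (-1.66) and Pdgfra itself (-1.29), against 3.22% of all genes. In iBAT 0 of 7 were lower and 1, Col1a1, was higher, and Pdgfra was at -0.78. Pdgfra was also the gate of the ranked cells, before thinning, and the top decile was deeper. Its ratios and its place in the count are therefore not free of the gate. Of the adipocyte markers at that level, 3 of 4 were lower in iBAT, with Cd36 at -5.06, Lpl at -1.44 and Fabp4 at -1.38, against 3.03% of all genes, and 1 of 2, Lpl, in iWAT. Of the mural markers 6 of 10 were higher in iBAT and 1 of 8 in iWAT, all of them under 50 CPM, Rgs5 in iBAT at 9.42 against 2.15. No share of all genes was taken under that level, so these counts have no baseline and are not read as a shift. Of 6 cycling genes, 1 (Mki67, at -1.36) was past 2-fold lower in iWAT and 0 in iBAT.

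Cells rich in Ankrd1 gave the reverse view. Those with 4 or more Ankrd1 UMIs at fixed depth, a limit chosen after the data were seen, were 1672 in iWAT (10.7%) and 2437 in iBAT (9.40%), and were compared with 10151 and 17417 cells with none. Their depths before thinning had medians of 20742.5 against 18585 and 30407 against 27129 UMIs. Contractile members were higher by less than 2-fold, from 0.14 (Myl9) to 0.34 (Tpm1) on the log2 scale in iWAT and from 0.42 (Tpm2) to 0.98 (Actg2) in iBAT, and all 8 were higher in both. The median of all genes tested was 0.02 in iWAT and -0.02 in iBAT, and the share of all genes higher by any amount is not given. Of the 22 YAP targets, 0 in iWAT and 1 in iBAT, Ccn2, were at least 2-fold higher, as were 0.0565% and 0.358% of all genes. In iWAT 1, Igfbp3, was at least 2-fold lower, at -1.52, and in iBAT 0 were. Ccn2 was 2220.2 against 1365 CPM in iWAT, a ratio of 0.70, and 1683 against 649.7 in iBAT, a ratio of 1.37. Ccn1 had ratios of 0.34 and 0.97. Of the 29 contractile partners 1 in iWAT and 3 in iBAT were past 2-fold, of which 0 of 23 and 2 of 25 were at 50 CPM or more, the 3 in iBAT being Actc1 (89.3 against 8.25 CPM), Acta1 (170.0 against 23.6) and Lmod1 (26.2 against 10.1).

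Most pathway genes of Pdgfra-positive cells lay within 2-fold between the depots. Of 87 genes in 5 lists, 6 were at least 2-fold higher in iBAT and 7 lower. Of the 57 among them at 50 CPM or more, 1 was higher (3.48% of all genes) and 5 were lower (3.98%). No YAP target at that level passed 2-fold, the widest being Tgfb2 (-0.93), Ccn2 (-0.91), F3 (0.82) and Ccn1 (-0.74). Of the Hippo genes at that level the widest was Sav1 (0.71), while Tead4 was low in both (3.90 and 1.35 CPM in iBAT and iWAT), and Yap1 stood at 185 CPM in iWAT and 197 in iBAT. Mylk was higher in iBAT, 109 against 26.8 CPM, a ratio of 2.03. Acta1 was lower there, 42.0 against 132, a ratio of -1.65, with the uncertainty of near-identical actins. The other 4 lower genes were of the TGF-beta and myofibroblast list, among them Postn (-3.01), Inhba (-1.85) and Col1a1 (-1.45).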

How the data were processed

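The libraries were made with the BD Rhapsody whole transcriptome kit. Values are UMI counts as deposited, not normalized, 1 matrix per library, and the authors' processing notes name Seurat 5.0.0 and the mm39 build. Strand and multi-gene read handling are not given in the sources used here. No per-sample column was left unmapped (0). The 9 members, the pathway and marker lists and the gates were chosen with earlier results of these data known.

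Cells with more than 200 and fewer than 7500 genes and under 30% mitochondrial UMIs were kept. UMIs were summed over the cells of a class and given per 1000000 (CPM), with 95% Poisson intervals for levels, intervals from the exact binomial split for ratios, and exact Clopper-Pearson intervals for shares. With 1 library per depot no test was made and no p-value is given. Intervals and floors (3 counts) cover counting error only. Shares of all genes past 2-fold count genes at 50 CPM or more in 1 group. Counts of members and lists have no such minimum unless it is named. For spread, pairs and deciles, Pdgfra-positive cells were thinned to 10000 UMIs (seed 1), leaving out shallower cells, and genes at a mean of 0.1 UMI or more were ranked.

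Named genes were the members, the 10 genes most like the contractile sum and the 5 most like Ankrd1 by the smaller r, the 5 most opposed, and in each list up to 4 with the widest ratio at 50 CPM or more. Some genes that this rule names are not reported here. Other named genes, the Epcam split, the Epcam, Ptprc, Pecam1 and Cdh15 gates, and the limit of 4 Ankrd1 UMIs were chosen after the data were seen. Doublets were kept, and Scrublet was tried as an alternative. Other alternatives were cell filters, gates, depth, seed, gene minimum, scaling and ranking by Acta2. The scripts were tested on simulated data. Python 3.11.15, numpy 2.4.6, scipy 1.17.1, pandas 2.3.3, scanpy 1.11.5 and matplotlib 3.10.9 were used.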

Additional observations from a re-analysis of the deposited data

Results flagged for a closer look

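The Ankrd1 ratio of the Rgs5 class over the Pdgfra class had opposite signs in the depots, -1.31 in iWAT and 0.58 in iBAT, a difference of 1.89 on the log2 scale. With gates of 1 UMI that allowed Pdgfra the values were 0.054 and -0.066, so the direction of the opposition was not kept. Col1a1, the main fibrillar collagen chain, differed between the top and bottom deciles of contractile cells by a log2 ratio of -0.18 in iWAT and 1.18 in iBAT, a difference of 1.36. Both were noted because the signs were opposite, and with 1 library per depot neither difference was tested.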

How the results depend on the processing

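Of 162 alternative values of the counted results, 148 stayed within 1.5 times the value given and 14 moved. Of 290 values for single genes and pairs, 171 stayed within their counting interval, 118 moved and 1 that was past 2-fold changed sign: with gates at 1 UMI and Pdgfra cells allowed, Ankrd1 in the Rgs5 class of iWAT had a log2 ratio of 0.054 in place of -1.31. In iBAT it went from 0.58 to -0.066. In all, 8 log2 ratios changed sign, among them Tagln in the iWAT Rgs5 class, whose ratio was near 0. Those gates also left 1 member past 2-fold higher and 0 lower in the iWAT Rgs5 class (2 and 1 before), 1 higher in the iBAT Rgs5 class (7 before) and 0 lower in the Adipoq class (7 before). Without Epcam cells the iWAT Rgs5 class had 7 higher and 0 lower. With genes at 50 CPM or more only, 1 pathway gene was higher in iBAT between depots (6 before). Ranking by Acta2 alone gave 17 pathway genes higher and 4 lower in iWAT (26 and 2 before). At 5000 UMIs 5 members had a Fano factor of 2 in iWAT (8 before) and 4 pathway genes were lower along the ranking (2 before). A gene minimum of 0.5 left 10 pairs in iBAT (18 before), seed 2 left 1 lower pathway gene in iBAT (2 before), and a Pdgfra gate of 3 UMIs left 0 genes higher with Ankrd1 in iWAT (1 before). Myh11 changed sign between depots at that gate, to 0.04. The causes were not tested, except that a gene minimum leaves fewer genes and pairs to count. Scrublet marked 561 of 29744 iWAT cells (1.89%) and 0 in iBAT, so it gave no alternative there. The other cell filter (more than 500 genes with no upper limit, under 15% mitochondrial UMIs) left 11 Adipoq cells in iBAT, too few for a value. No paired analysis was possible because each depot was 1 library, and for the same reason no replicate could be left out.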
